A study of Mus musculus with 6 samples.

Results

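The genes described here are the 13 protein-coding messages of the mouse mitochondrial genome together with 21 nuclear genes for enzymes of the tricarboxylic acid (TCA) cycle and of mitochondrial pyruvate and malate metabolism. They were chosen by name from a list of 34 symbols, and all 34 were found among the 56953 genes of the deposited table. RNA came from 6 mouse pancreatic ductal adenocarcinoma lines, KPC142, KPC180, KPC469, KPC490, KPC630 and KPC850, each sequenced as 1 library with no replicate. The labels give KPC as the strain and as the cell source, and state no alleles, sex, age, passage or clonality for any line. The study asked how lines with low and high infiltration of CD8+ T cells differ, but no infiltration class is given per line, so each line is described by its own value and no group is compared with another. No p-value is given, since there is no replicate error to test against, and intervals cover counting error only.

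The libraries held between 16471558 and 18701274 counts in total. Levels are in CPM, read counts scaled to a common library size after adjustment by the TMM method, and 1 count was worth 0.0532 to 0.0607 CPM. The 6 epithelial marker genes checked summed to 2818 to 11784 CPM, while the 3 acinar and the 4 endocrine markers were at 0 counts in every line. Markers of T and NK cells, leukocytes, endothelium and fibroblasts summed to 4.2 CPM at most. In bulk RNA, fewer cells of a type and less RNA per cell cannot be told apart.

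The TCA cycle oxidises acetyl-CoA in the mitochondrial matrix and passes electrons to the respiratory chain. Pyruvate dehydrogenase feeds it with acetyl-CoA, and pyruvate carboxylase refills it with oxaloacetate. The mitochondrial genome encodes core subunits of complexes I, III and IV and of ATP synthase, and is transcribed as long precursors that are cut at the tRNAs. All enzymes of the cycle and all regulators of mitochondrial transcription are encoded in the nucleus. Pancreatic tumour cells are known to use glutamine as well as glucose as carbon for the cycle.

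Of the 13 mitochondrial messages, 7 had usable counts, and the other 6 were listed at or near 0 in every line. Those at 0 counts in all 6 lines were mt-Co2 and mt-Co3, subunits of cytochrome c oxidase, and mt-Atp6 and mt-Atp8, subunits of ATP synthase. mt-Nd3, a complex I subunit, had 4 counts in KPC180, 4 in KPC469 and 1 in KPC490, and mt-Nd4l, another one, had 1 count in KPC180. Every respiring cell uses these genes, so the entries are given as listed and not as levels. For 5 of the 6, nearly all of the sequence is also found in an annotated nuclear transcript. mt-Co2, mt-Co3, mt-Atp6, mt-Nd3 and mt-Nd4l each matched an annotated pseudogene on chromosome 1 at 99.71% to 100% identity over 99.0% to 99.9% of their length. Those 5 pseudogenes, Gm28661, Gm28437, Gm10925, Gm28438 and Gm10222, were themselves at 0 counts in every line. mt-Atp8, of 204 bases, shared 43 bases with a nuclear transcript (Gm10925), which is also the length of its overlap with mt-Atp6. Only annotated transcripts were searched, so a copy of mt-Atp8 elsewhere in the nuclear genome was not looked for. The 22 mitochondrial tRNA genes, of 59 to 75 bases, were also all at 0. Whether shared sequence or length bears on these entries was not tested.

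The first 100 bases of mt-Co2 and of its nuclear copy Gm28661, from the GENCODE vM21 transcripts, are shown because they carry this pattern; not 1 base differs between them:
mt-Co2: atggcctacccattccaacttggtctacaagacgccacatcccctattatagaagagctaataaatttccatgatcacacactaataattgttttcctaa
Gm28661: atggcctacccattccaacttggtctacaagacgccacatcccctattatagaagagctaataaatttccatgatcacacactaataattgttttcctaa
mt-Cytb, which had counts, is set beside its closest nuclear copy, Gm11410 on chromosome 4, over transcript bases 2 to 101; the 5 differing bases are in capitals:
mt-Cytb: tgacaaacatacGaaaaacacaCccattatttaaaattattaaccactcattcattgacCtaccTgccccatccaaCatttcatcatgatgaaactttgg
Gm11410: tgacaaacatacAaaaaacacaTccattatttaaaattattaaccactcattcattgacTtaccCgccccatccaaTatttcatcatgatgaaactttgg

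Copies of the messages with usable counts were less alike or covered less of the message. mt-Cytb matched Gm11410 at 92.91% identity over 1142 bases, and mt-Nd6 matched Gm11408 at 93.64% over its 519 bases. For mt-Nd1, the search found no match of 30 bases or more in an annotated nuclear transcript. mt-Co1 matched Gm13340 at 97.6% over all of its 1545 bases and Gm29216 at 99.79% over 483 of them. mt-Nd4 was identical to Gm28439 over 876 of its 1378 bases, which leaves 502 bases outside the match. mt-Nd2 matched Gm13339 at 96.67% over 510 of 1038 bases, and mt-Nd5 matched Gm4076 at 95.18% over 954 of 1824. Whether reads of these messages were lost to shared sequence was not tested. None of these copies had more than 5 counts in a library.

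All 7 messages with usable counts were lowest in KPC142. Among all 11531 genes kept by the filter on low counts, 20.9% were lowest in that line, but the 7 messages come from 1 genome and are not independent of each other. None of the 7 had a range of 2-fold or more between the highest and the lowest line, against 46.7% of the kept genes. Their ranges were 1.4-fold to 1.8-fold.

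**Figure D1:**
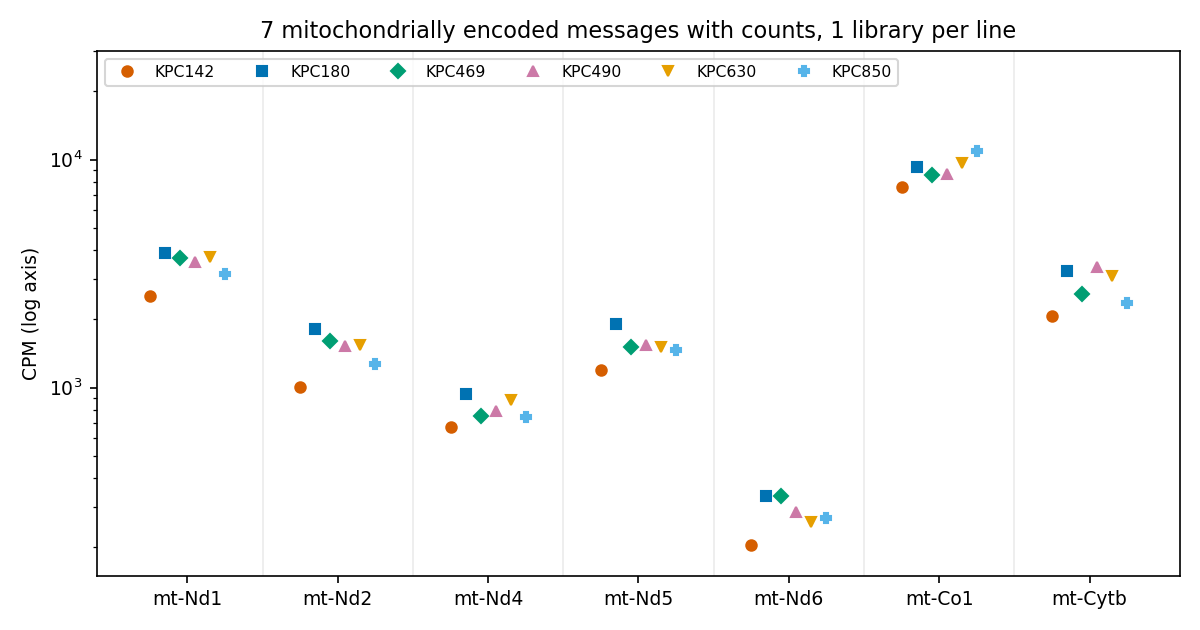
CPM on a log axis of the 7 mitochondrially encoded messages with usable counts, 1 point for each of the 6 lines (1 library each, no error bars). KPC142 is the lowest point for each message, and mt-Co1 is the highest message in each line, from 7591 CPM in KPC142 to 10855 in KPC850.

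mt-Co1, the catalytic subunit of cytochrome c oxidase, stood at 10855 CPM in KPC850, 9691 in KPC630, 9275 in KPC180, 8613 in KPC490, 8517 in KPC469 and 7591 in KPC142. It ranked between 1 and 3 by CPM among the kept genes of every line. KPC850 was the highest line, 1.43-fold above KPC142 (95% interval 1.42 to 1.44).

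mt-Cytb, the cytochrome b of complex III, stood at 3367 CPM in KPC490, 3258 in KPC180, 3098 in KPC630, 2565 in KPC469, 2363 in KPC850 and 2059 in KPC142. KPC490 and KPC180 were the high lines for this message, and KPC850, the top line for mt-Co1, was the second lowest.

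The complex I messages were led by mt-Nd1, at 3890 CPM in KPC180, 3737 in KPC630, 3711 in KPC469, 3562 in KPC490, 3159 in KPC850 and 2536 in KPC142. mt-Nd2 stood at 1814 CPM in KPC180, 1602 in KPC469, 1537 in KPC630, 1517 in KPC490, 1273 in KPC850 and 1009 in KPC142. Its 1.8-fold range (1.76 to 1.83) was the widest of the 7. KPC180 was the highest line for 4 of the 7 messages, mt-Nd1, mt-Nd2, mt-Nd4 and mt-Nd5, and for 16% of the kept genes. mt-Nd5 ran from 1197 CPM in KPC142 to 1901 in KPC180, with the other 4 lines between 1456 and 1538. mt-Nd4 ran from 670.7 CPM in KPC142 to 938.5 in KPC180. mt-Nd6 is the only one of the 13 read from the other strand of the mitochondrial genome, and its message is known to lack a poly(A) tail in mammals. The libraries were made with an mRNA kit that selects poly(A) RNA, and mt-Nd6 was nevertheless at 204.2 CPM in KPC142 and at 256.8 to 334.4 CPM in the other lines. The gene overlaps mt-Nd5 on the opposite strand by 14 bases. Whether reads from the opposite strand are among the mt-Nd6 counts was not tested.

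Per kilobase of transcript, mt-Co1 was the highest message with a median of 5789 CPM per kilobase, followed by mt-Nd1 (3800), mt-Cytb (2475), mt-Nd2 (1471), mt-Nd5 (828.2), mt-Nd4 (559.3) and mt-Nd6 (534.9). mt-Nd1 was above mt-Cytb in all 6 lines although their ranges over the lines overlapped. mt-Nd4 and mt-Nd6 could not be ordered: mt-Nd4 was above mt-Nd6 in 5 lines and below it in KPC469, at 546.9 against 644.3 CPM per kilobase. All values divide by the whole transcript length, although mt-Nd4 was identical to Gm28439 over 876 of its 1378 bases. Whether reads were lost to such shared sequence was not tested, so the order of the messages holds for the counts as listed.

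The mix of mitochondrial messages also varied between the lines. Of all mitochondrial counts, mt-Co1 made up 54% in KPC850 and 49.7% in KPC142, while it made up 43.3% to 46.8% elsewhere. mt-Cytb made up 17.1% in KPC490 and 11.7% in KPC850. In KPC142 the low level was thus not equal across messages: relative to the median over the 6 lines, mt-Nd4 and mt-Co1 were reduced least and mt-Nd2 most.

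Summed, the mitochondrial messages took 2.11% of library counts in KPC180, 2.08% in KPC630, 2.02% in KPC850, 1.97% in KPC490, 1.89% in KPC469 and 1.55% in KPC142. The 21 nuclear enzyme genes took 0.388% in KPC490, 0.34% in KPC469, 0.339% in KPC630, 0.328% in KPC850, 0.322% in KPC142 and 0.283% in KPC180. KPC142, lowest for the mitochondrial sum, was second lowest for the nuclear one, and KPC180, highest for the mitochondrial sum, was lowest for the nuclear one. Across the 6 lines, the log2 sums had a Pearson r of -0.0386 and a Spearman rho of -0.314, and r was 0.703 without the 2 lines farthest from the median nuclear sum. The sums are shares of the same libraries, and these values describe 6 points only. The r without 2 lines still includes KPC142, the lowest for the mitochondrial sum. That sum is in effect the sum of the 7 messages with usable counts. The shares here and the ratios below are therefore no total for the mitochondrial genome. The mitochondrial sum was 1.4-fold higher in KPC180 than in KPC142, and without KPC142 the range over the other 5 lines was 1.13-fold.

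**Figure D2:**
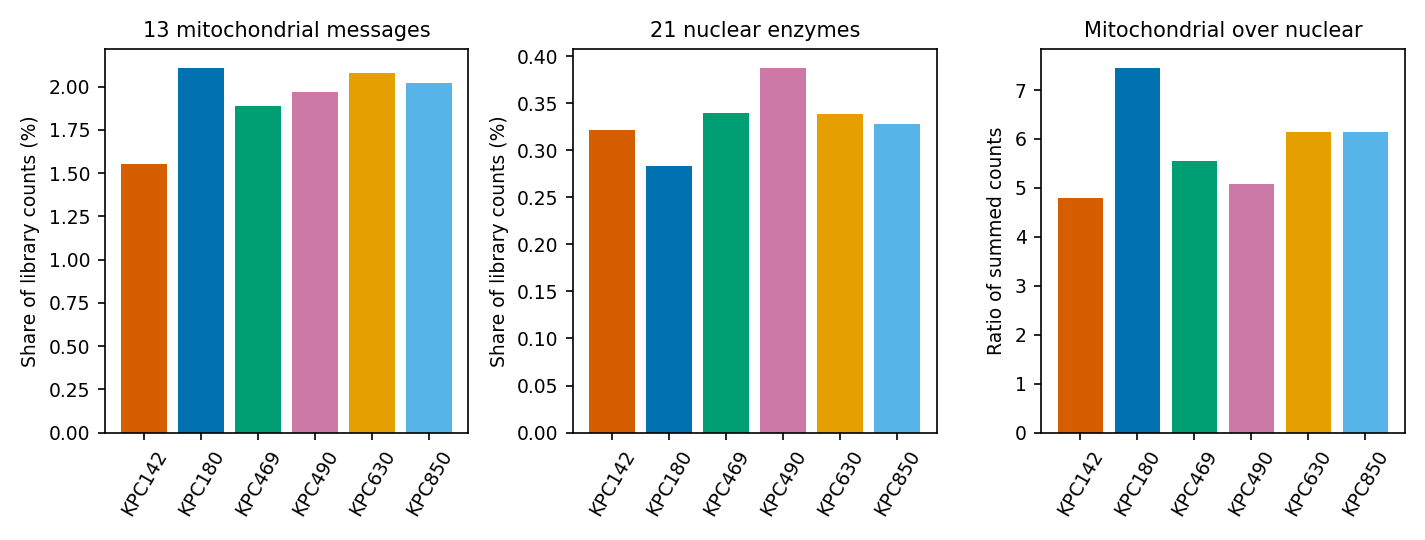
Share of library counts (%) taken by the 13 mitochondrial messages (left) and by the 21 nuclear enzyme genes (middle), and the ratio of the summed counts (right), with 1 bar per line and 1 library per bar. KPC142 has the lowest mitochondrial share, 1.55%, and the lowest ratio, 4.8, and KPC180 has the highest ratio, 7.46. The mitochondrial values rest on the 7 messages with usable counts, as the rest of the 13 were at or near 0.

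The ratio of mitochondrial to nuclear counts was 7.46 in KPC180, 6.15 in KPC630, 6.15 in KPC850, 5.54 in KPC469, 5.08 in KPC490 and 4.8 in KPC142. KPC142 and KPC490 had the lowest ratios, but with different sums: KPC142 had the fewest mitochondrial counts, at 15266 CPM, and KPC490 the most nuclear ones, at 3875 CPM. The same comparison with the 72 nuclear respiratory chain and ATP synthase genes gave ratios of 2.45 in KPC180, 2.33 in KPC630, 2.29 in KPC850, 1.96 in KPC469, 1.91 in KPC490 and 1.61 in KPC142. KPC142 was again lowest and KPC180 highest. These nuclear genes summed to 9462 CPM in KPC142, within the 8748 to 10309 CPM of the other lines. Across the 6 lines, their log2 sum and the mitochondrial one had a Pearson r of -0.369 and a Spearman rho of -0.714. Over the 4 lines left without the 2 farthest from the median respiratory chain sum, r was -0.982. That last value rests largely on KPC142. The other lines left, KPC180, KPC630 and KPC850, lay close together, at 8748 to 8884 CPM for these nuclear genes and 20116 to 21411 CPM for the mitochondrial messages.

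Among the 21 nuclear members, 20 passed the filter and Suclg2 did not, because it was nearly silent in KPC142. Of the 20, 4 had a range of 2-fold or more, which is 20% against 46.7% of the kept genes. None had a range of 4-fold or more, against 13.2%. The median range was 1.68-fold for the 20 and 1.94-fold for all kept genes. Suclg2, whose range was far wider, is in none of these counts. The filter keeps only genes counted in all 6 lines, so genes silent in a line are missing from the members and from the background alike.

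**Figure D3:**
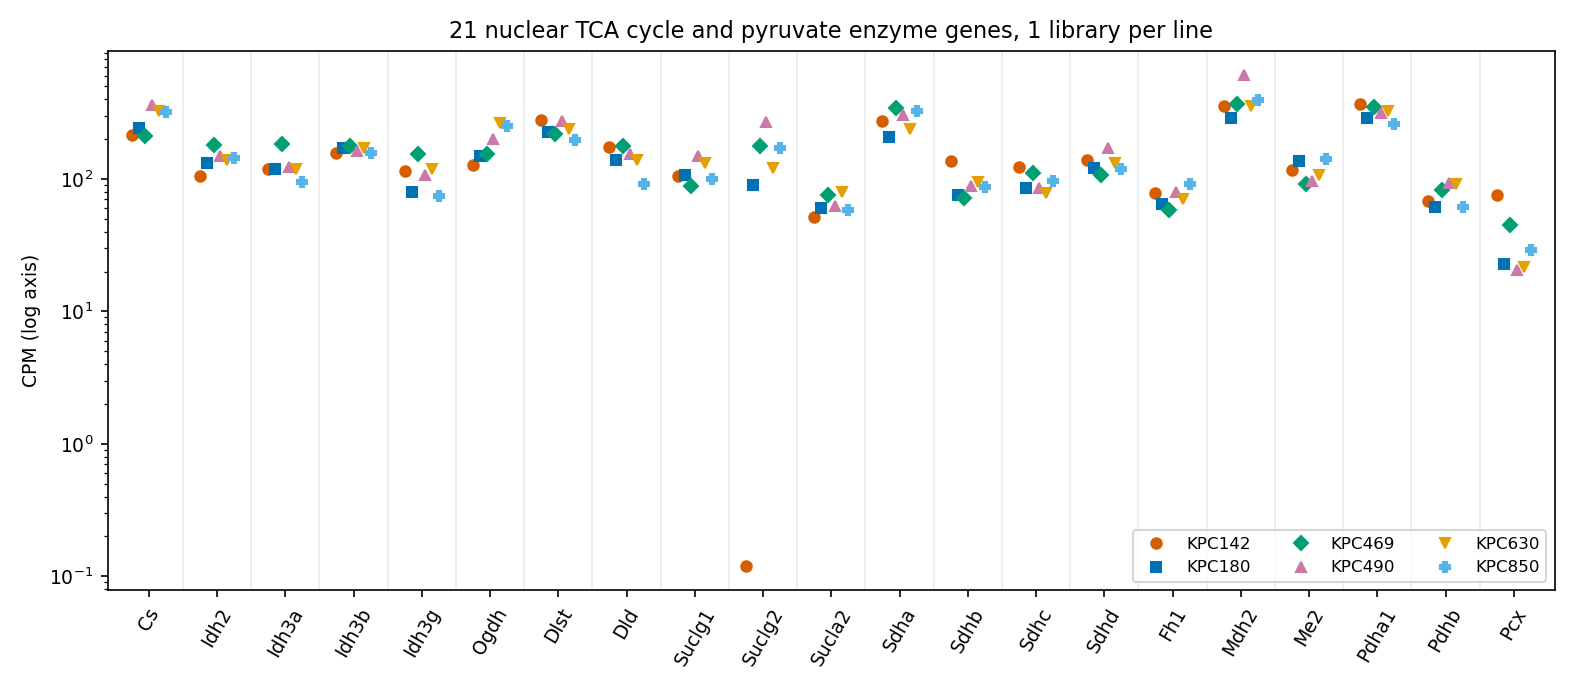
CPM on a log axis of the 21 nuclear members, 1 point for each of the 6 lines (1 library each, no error bars). Most genes stay within a 2-fold band, Suclg2 drops to 0.12 CPM in KPC142, and Pcx is highest in KPC142 at 76.3 CPM.

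Pcx, the pyruvate carboxylase, had the widest range of the 20. It stood at 76.3 CPM in KPC142, 45.1 in KPC469, 29 in KPC850, 23 in KPC180, 21.8 in KPC630 and 20.6 in KPC490. KPC142 was 3.71-fold above KPC490 (3.3 to 4.19), KPC469 was second, and the other 4 lines were at 29 CPM or below.

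Pdha1 and Pdhb encode the alpha and beta subunits of the E1 component of pyruvate dehydrogenase. Pdha1 was highest in KPC142 (365.8 CPM) and lowest in KPC850 (260.3), and Pdhb was highest in KPC490 (93 CPM) and lowest in KPC850 (61.3). Per kilobase, Pdha1 made up 74% to 81.7% of the pair in the 6 lines. A stretch of 426 bases of the longest Pdha1 transcript is also part of Map3k15 on the opposite strand, which had 140 counts at most. Me2, the mitochondrial malic enzyme that turns malate into pyruvate, had its lowest level in KPC469 (91 CPM) and its highest in KPC850 (140.7 CPM).

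Cs, the citrate synthase that opens the cycle, stood at 362.6 CPM in KPC490, 325.7 in KPC630, 321.2 in KPC850, 244.2 in KPC180, 213.1 in KPC142 and 212.5 in KPC469. The lines fell on either side of a gap, with KPC490, KPC630 and KPC850 above it. Mdh2, the malate dehydrogenase that closes the cycle, was at 606.4 CPM in KPC490, against 393.5 in KPC850, 370.4 in KPC469, 358.5 in KPC630, 357.1 in KPC142 and 288.5 in KPC180. KPC490 was thus 1.54-fold above the next line. Per kilobase, Mdh2 was the highest of the 21 nuclear genes with a median of 226.9 CPM per kilobase, and Pcx the lowest with 6.26.

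Isocitrate is oxidised by the NAD-dependent enzyme, with subunits Idh3a, Idh3b and Idh3g, and by the NADP-dependent Idh2. Idh3a, the catalytic subunit, was at 184.4 CPM in KPC469 and at 94.1 in KPC850, with the other 4 lines between 118.8 and 123.0. Idh3g ran from 74.5 CPM in KPC850 to 153.0 in KPC469, a range of 2.05-fold (1.92 to 2.2). Idh3b was the steadiest of all members, from 157.4 to 176.6 CPM. Its share of the 3 subunits per kilobase still ran from 37.3% in KPC469 to 51.5% in KPC850, since the other subunits differed between these lines. Idh2 was highest in KPC469 as well, at 182.0 CPM, and lowest in KPC142, at 106.1.

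The 2-oxoglutarate dehydrogenase complex joins Ogdh, its decarboxylase, with Dlst and with Dld, which it shares with pyruvate dehydrogenase. Ogdh stood at 265.3 CPM in KPC630, 253.0 in KPC850, 201.1 in KPC490, 153.4 in KPC469, 148.9 in KPC180 and 128.3 in KPC142. The range was 2.07-fold (1.97 to 2.18). Dld and Dlst did not follow it. Dld was lowest in KPC850, at 92.4 CPM, and at 138.7 to 176.5 in the other lines, and Dlst ran from 197.3 CPM in KPC850 to 277.8 in KPC142. Per kilobase, Ogdh made up 16.8% of the 3 subunits in KPC142 and 38.6% in KPC850.

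Succinate dehydrogenase, which is also complex II of the respiratory chain, has 4 subunits, all nuclear. Sdha, the flavoprotein, ran from 206.6 CPM in KPC180 to 343.6 in KPC469. Sdhb, the iron-sulfur subunit, was at 135.7 CPM in KPC142, against 94.7 in KPC630, 88.5 in KPC490, 86.4 in KPC850, 75.2 in KPC180 and 72.4 in KPC469. KPC142 was 1.43-fold above the next line. The membrane anchors were highest in different lines, Sdhc in KPC142 (122.2 CPM) and Sdhd in KPC490 (170.3 CPM). Fh1, the fumarase, was lowest in KPC469 (58.5 CPM) and highest in KPC850 (92.1 CPM).

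Succinyl-CoA ligase makes succinate and a nucleoside triphosphate. Suclg1 is its alpha subunit, and it pairs with either of 2 beta subunits. Suclg2 gives the enzyme named GDP-forming and Sucla2 the one named ADP-forming, names that refer to the reverse reaction. Suclg2 stood at 269.4 CPM in KPC490, 177.5 in KPC469, 172.2 in KPC850, 121.3 in KPC630, 90.3 in KPC180 and 0.12 (2 counts) in KPC142. The value in KPC142 is under the floor of 3 counts used here for a single library. The ratio of KPC180 to KPC142 was 753.5 with a counting interval of 208.2 to 6228. Without KPC142, KPC490 was still 2.98-fold above KPC180, the extremes of the other 5 lines (2.81 to 3.17).

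Sucla2 stood at 79.8 CPM in KPC630, 75.4 in KPC469, 62.1 in KPC490, 60.3 in KPC180, 58.7 in KPC850 and 51.5 in KPC142. KPC142 was also the lowest line for this partner, at 0.762 of the pooled level of the other 5 lines (0.708 to 0.818). Suclg1 was at 106.1 CPM in KPC142, within the 87.8 to 150.2 CPM of the others. No higher level of Sucla2 therefore accompanied the near-absence of Suclg2 in KPC142.

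**Figure D4:**
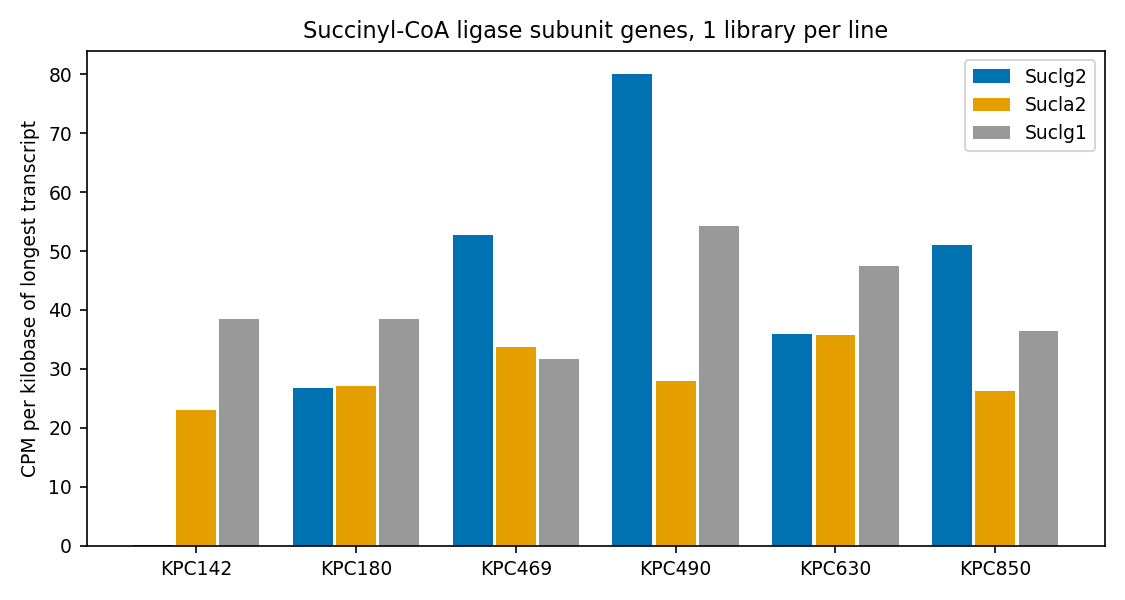
Levels in CPM per kilobase of the longest transcript of Suclg2, Sucla2 and Suclg1 in the 6 lines (1 library each, bars from 0, no error bars). In KPC142 the Suclg2 bar is at 0.0356 and not visible, while in KPC490 it is the tallest, at 80, against 27.9 for Sucla2.

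Per kilobase of transcript, the ratio of Suclg2 to Sucla2 was 2.87 in KPC490 (2.69 to 3.07), 1.94 in KPC850 (1.81 to 2.09), 1.56 in KPC469 (1.46 to 1.66), 1.01 in KPC630 (0.943 to 1.07), 0.991 in KPC180 (0.914 to 1.07) and 0.00154 in KPC142 (0.000186 to 0.00558). Suclg2 was the higher partner in KPC469, KPC490 and KPC850, while the interval includes 1 in KPC180 and KPC630. The order in KPC180 and KPC630 depends on the length used. With the median length of the annotated transcripts in place of the longest, the ratio was 0.863 in KPC180 (0.796 to 0.936) and 0.876 in KPC630 (0.821 to 0.936), with Sucla2 the higher partner, and 1.36 to 2.5 in KPC469, KPC490 and KPC850. The median ratio over the lines was then 1.12 and not 1.28. The beta subunits together stood at 23.2 CPM per kilobase in KPC142 and at 53.9 to 107.9 in the other lines. Set against Suclg1 per kilobase, this was a beta to alpha ratio of 0.604 in KPC142 and of 1.4 to 2.73 elsewhere.

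A processed pseudogene on chromosome X, Gm15163, is 98.92% identical to Suclg2 over 1302 of its 3367 bases; it had 0 counts in KPC142 and 11 at most in another line. The coding neighbours of Suclg2 on chromosome 6 are described by their levels. The filter on low counts keeps only genes counted in all 6 lines, so a neighbour that passed it has counts in KPC142 by construction. Of the 5 on 1 side, Kbtbd8 was at 6.11 CPM in KPC142 and at 3.49 to 9.7 in the others, and Lrig1, a negative regulator of receptor tyrosine kinases, at 27.3 CPM in KPC142 and at 45.8 to 62.1 in the others. Slc25a26, which carries S-adenosylmethionine into mitochondria, stood at 9.35 CPM in KPC142 against 10.4 to 14.9, and Magi1 at 71.2 CPM against 53.6 to 137.0. The fifth, Gm15737, had 1 count in KPC180 and 0 in the other lines. Of the 5 on the other side, the nearest ones, Fam19a1, 1700123L14Rik and Fam19a4, had 0 counts in KPC142. They had 0.381 CPM or less in every line, which is too little to compare the lines. Beyond them, Eogt and Tmf1 were highest in KPC142, at 35.7 and 72.9 CPM. DNA was not measured.

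Because Suclg2 was nearly silent in 1 line while its partner was expressed in all 6, the 250 bases before the RefSeq start of each gene are shown (GRCm38.p6). Each runs 5′ to 3′ on the strand of the gene, and capitals mark the GC box core CCGCCC on either strand.
Suclg2 (chr6:95718847-95719096, minus strand): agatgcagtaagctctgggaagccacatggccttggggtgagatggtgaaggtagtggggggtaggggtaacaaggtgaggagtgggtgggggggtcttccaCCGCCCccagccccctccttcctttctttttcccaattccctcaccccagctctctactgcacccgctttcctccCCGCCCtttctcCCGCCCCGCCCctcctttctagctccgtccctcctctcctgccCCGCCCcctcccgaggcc
Sucla2 (chr14:73552536-73552785, plus strand): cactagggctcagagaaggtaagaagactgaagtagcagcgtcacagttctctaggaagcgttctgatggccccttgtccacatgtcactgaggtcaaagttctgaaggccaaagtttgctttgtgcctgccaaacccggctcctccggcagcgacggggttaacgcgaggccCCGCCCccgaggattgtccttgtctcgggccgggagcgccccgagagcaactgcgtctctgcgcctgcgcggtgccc

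The Suclg2 window held 5 matches to CCGCCC, a pair of which overlap by 1 base, and 8 CpG dinucleotides, and the Sucla2 window held 1 match and 18 CpG dinucleotides. Their GC contents were 64.4% and 61.2%, against a median of 52.4% over 32851 promoter windows. Of the 18 nuclear members with a window in the RefSeq table, 11 held the GC box core in at least 1 window, and 32.7% of all windows held it. Here and below, members are counted by gene and the background by window, so these shares are not like for like. The ETS core CCGGAAG was found for Idh3g and Sdhd (6.91% of all windows), and TGCGCA, a half-site of the factor NRF1, for Ogdh, Sdha and Sdhd (6.43%). Neither was in the Suclg2 or Sucla2 window. A match of letters is a description and no evidence of binding.

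Several nuclear members stood high or low in a line together with the other genes of their chromosome. Deviations here are log2 CPM minus the gene's median over the 6 lines, and each is set beside the median deviation of the other kept genes of the same chromosome. In KPC142, Sdhb was at 0.63 and chromosome 4 at 0.50, and Sucla2 was at -0.25 and chromosome 14 at -0.20. In KPC490, Cs was at 0.37 and chromosome 10 at 0.33, and Suclg1 was at 0.50 and chromosome 6 at 0.26. In KPC850, the X-linked Idh3g and Pdha1 were at -0.57 and -0.31 and chromosome X at -0.46, while Dlst and Dld were at -0.24 and -0.66 and chromosome 12 at -0.31. Sdha was at 0.25 in KPC469 and at -0.27 in KPC630, and chromosome 13 at 0.25 and -0.27.

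**Figure D5:**
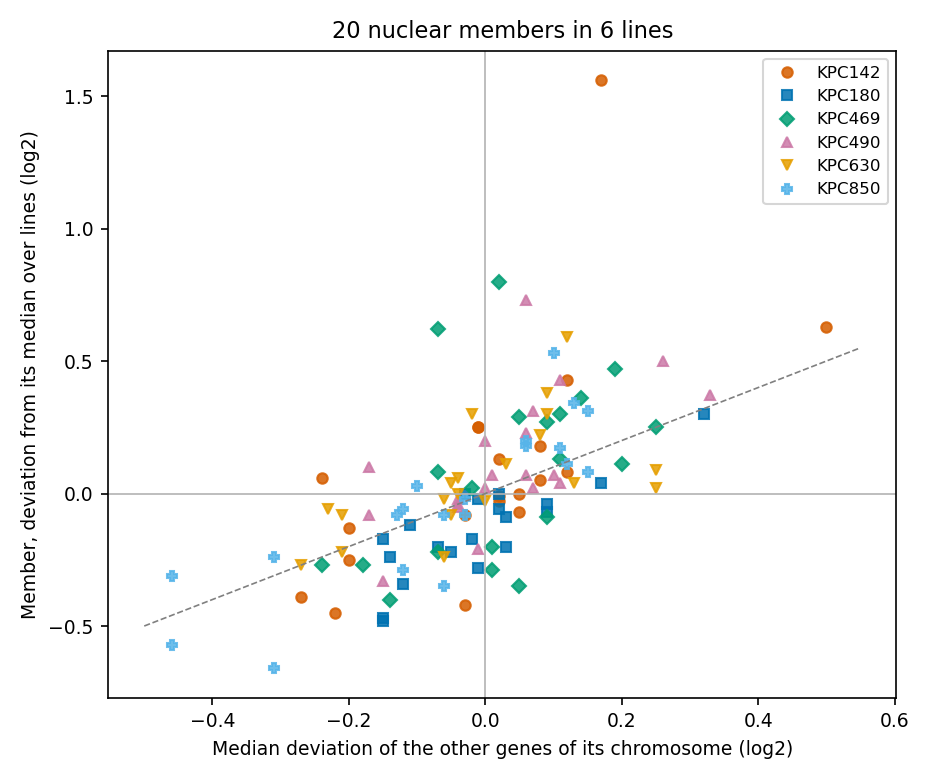
For the 20 nuclear members in 6 lines, the deviation of log2 CPM from the gene's median over the lines (vertical axis) against the median deviation of the other kept genes of its chromosome (horizontal axis); the dashed line marks equal values. Sdhb in KPC142 is the point farthest right, at 0.50 and 0.63, and Pcx in KPC142 lies far above the line, at 0.17 and 1.56.

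In 21 pairs of a member and a line the chromosome median was 0.2 or more from 0, and in 20 of them the member deviated in the same direction. The share was 95.2%, against 81.4% for all kept genes in the same situation, and several members share a chromosome. The exception was Me2 in KPC142, at 0.06 with chromosome 18 at -0.24. Subtracting the chromosome median lowered the median absolute deviation of the members to 0.124 log2 units, against 0.189 before it, and that of all genes to 0.177, against 0.207. Other deviations were far larger than the median deviation of their chromosome, and that of Idh3a in KPC469 ran the other way. Pcx in KPC142 was at 1.56 with chromosome 19 at 0.17, Idh3a in KPC469 at 0.62 with chromosome 9 at -0.07, Mdh2 in KPC490 at 0.73 with chromosome 5 at 0.06, and Ogdh in KPC630 at 0.59 with chromosome 11 at 0.12. For Suclg2 in KPC142 the chromosome 6 median was 0.05.

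Nuclear subunits of the respiratory chain were about as even over the lines as the TCA enzymes. Among 37 nuclear complex I genes, 7 reached a 2-fold range (18.9%), as did 2 of 9 for complex III (22.2%), 2 of 11 for complex IV (18.2%) and 2 of the 14 kept of 15 for ATP synthase (14.3%), against 46.7% of all kept genes. Their median ranges were 1.57-fold, 1.57-fold, 1.7-fold and 1.59-fold, against 1.94-fold for all kept genes. Ndufb6, a complex I subunit on chromosome 4, was at 64.7 CPM in KPC142 and at 24.1 to 45.4 in the others. Uqcr10 of complex III was at 159.2 CPM in KPC142 against 56.2 to 103.6, Cyc1, the cytochrome c1 of the same complex, at 418.2 in KPC490 against 148.6 to 228.7, and Cox7a2 of complex IV ran from 30.3 CPM in KPC469 to 78.3 in KPC142. Atp5e, the epsilon subunit of ATP synthase, was at 25.8 CPM in KPC142 and 67.6 in KPC180.

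The genes that serve mitochondrial RNA did not all follow the mitochondrial messages. Of the 24 kept of 25 genes for mitochondrial transcription and RNA processing, 3 reached a 2-fold range (12.5%, against 46.7% of kept genes) and 10 were lowest in KPC142, where 20.9% of all kept genes were lowest. Slirp, which binds and stabilises mitochondrial messages, was at 20.9 CPM in KPC142 and at 29.3 to 58.3 in the others. Mtpap, the mitochondrial poly(A) polymerase, was at 19.3 CPM in KPC142 and at 23.9 to 39.7 in the others, with its highest value in KPC180. Hsd17b10, a subunit of mitochondrial RNase P, was highest in KPC469 (148.9 CPM) and lowest in KPC180 (60.3 CPM). Whether these levels bear on the mitochondrial messages was not tested.

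Among 10 genes that maintain mitochondrial DNA, 4 reached a 2-fold range (40%, against 46.7% of kept genes). Polg2, the accessory subunit of its polymerase, and Twnk, its helicase, were highest in KPC469, at 15.4 and 110.3 CPM. Top1mt, the mitochondrial topoisomerase, was highest in KPC490 at 40.3 CPM. Of 6 regulators of mitochondrial biogenesis 5 were kept and 1 had such a range (20%): the coactivator gene Ppargc1a ran from 5.83 CPM in KPC850 to 17.9 in KPC469.

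Genes around the cycle had a median range of 2.21-fold, those of pyruvate control of 2.5-fold and those next to succinyl-CoA ligase of 2.68-fold, against 1.94-fold for all kept genes. Of the 15 kept of 16 other genes of citrate, malate and glutamate metabolism, 8 reached a 2-fold range (53.3%, against 46.7% of kept genes) and 1 a 4-fold range (6.67%, against 13.2%). Me1, the cytosolic malic enzyme, was at 139.3 CPM in KPC469 against 297.4 to 533.5 in the others. Slc25a1, the citrate exporter, was at 90.3 CPM in KPC469 and 295.0 in KPC850. Among 12 genes that control pyruvate entry, 7 reached a 2-fold range (58.3%, against 46.7% of kept genes) and 3 a 4-fold range (25%, against 13.2%). Pdk3, a kinase that inactivates pyruvate dehydrogenase, was at 22.5 CPM in KPC142 and at 5.04 in KPC180, and Pck2, the mitochondrial phosphoenolpyruvate carboxykinase, at 239.5 CPM in KPC469 and at 58.4 to 114.0 in the others. Among 6 genes of enzymes next to succinyl-CoA ligase, 5 were kept, of which 4 reached 2-fold (80%, against 46.7%) and 1 reached 4-fold (20%, against 13.2%). Oxct1, which uses succinyl-CoA to activate ketone bodies, stood at 252.2 CPM in KPC490, 240.0 in KPC469, 171.9 in KPC630, 84.6 in KPC850, 80.8 in KPC180 and 32 in KPC142. KPC142 was the lowest line for Oxct1, as it was for Suclg2 and Sucla2, and KPC490 the highest, as it was for Suclg2. The list did not share this pattern: of its 5 kept genes, 2 were lowest in KPC142, 2 in KPC469 and 1 in KPC850. Among all kept genes, 20.9% were lowest in KPC142 and 19.5% in KPC469. Alas1, for example, was at 22.9 CPM in KPC469, its lowest line, and at 40.3 in KPC142.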

How the data were processed

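The authors deposited expected counts, estimated per Ensembl gene; Trimmomatic 0.36, STAR 2.7.10b, RSEM 1.3.3 and build GRCm39 are named in the submitters' processing notes, and a stranded mRNA kit in the labels' protocols. How reads with several possible origins were treated is not given in the sources used here. Between 5.28% and 5.66% of values per library had a fractional part, and all were rounded to whole numbers. TMM factors (0.986 to 1.013) and the filter filterByExpr with no design came from edgeR 4.0.16 in R 4.3.3, and 11531 genes were kept. With no design, a gene must reach the count cut-off of the filter in all 6 lines. Ranges use log2 CPM with a prior count of 2. With no groups in the labels there was no contrast, so no edgeR or DESeq2 test was run, and DESeq2 1.42.0 gave size factors as an alternative. Ratios have exact conditional binomial 95% intervals. Names, transcript lengths and sequences came from GENCODE vM21 (GRCm38; 52029 identifiers matched) and promoter windows from RefSeq, so no coordinate is given on GRCm39. Near-identical copies are transcripts with at least 90% identity over 200 bases or more (BLAST+ 2.17.0). Other genes named are among the 3 per list with the widest range among genes with 10 CPM or more in a line, and the 5 coding genes on each side of Suclg2; the pseudogenes named were chosen after their counts were seen. Members and lists were chosen with earlier results of these data known. The calculation of ranges, and of the line in which a gene is highest or lowest, was tested on simulated counts. The other calculations were not part of that test.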

Additional observations from a re-analysis of the deposited data

How the results depend on the processing

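The number of members with a range of 2-fold or more was 4 of 27 kept, and stayed at 4 with DESeq2 size factors, with library totals alone, with the mitochondrial genes left out of the normalization and with a prior count of 0.5. It was 6 of 30 with no filter beyond 1 count, which added Suclg2 and mt-Nd3, the second of these on 4 counts at most (56.3% of all genes). It was 5 of 28 among genes with 10 CPM in a line (44.9%), which let Suclg2 in, and 3 with any line left out (37.5% to 42.5%). The mitochondrial sum ranged 1.4-fold over the lines and 1.36-fold on library totals; with each line left out in turn it ranged from 1.13-fold to 1.4-fold. Chosen after seeing the data, leaving out mt-Co1 gave 1.58-fold. The ratio of mitochondrial to nuclear counts ranged 1.56-fold, and 1.28-fold to 1.56-fold with a line left out, the lowest without KPC180. It ranged 1.75-fold without mt-Co1 and 1.61-fold without Suclg2, both chosen after seeing the data. Adding the counts of near-identical copies left both ranges at 1.4-fold and 1.56-fold. The median ratio of Suclg2 to Sucla2 per kilobase was 1.12 with the median transcript length. No paired analysis was possible because the lines are in no group and carry no shared replicate number. Depth limits Suclg2 in KPC142, at 2 counts, to an interval for its ratios, and the 6 mitochondrial messages at or near 0 cannot be read as levels.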

Other observations

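The mitochondrial ribosomal RNAs, which are not among the 13 messages, differed more between the lines than the messages did, and in another order. mt-Rnr1, the small ribosomal RNA, stood at 989.7 CPM in KPC469, 501.6 in KPC490, 483.9 in KPC180, 448.4 in KPC850, 341.7 in KPC630 and 250.0 in KPC142, and mt-Rnr2, the large one, at 1373 CPM in KPC469, 757.4 in KPC180, 548.8 in KPC490, 356.3 in KPC142, 314.1 in KPC850 and 253.3 in KPC630. KPC469 was highest for both, with highest to lowest ratios of 3.96 (3.83 to 4.09) and 5.42 (5.26 to 5.59), while all 7 messages with usable counts stayed within 1.8-fold. The libraries were selected for poly(A), and how much of these RNAs passed that selection in each line was not tested.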
